A study of Mus musculus with 4 samples.

Results

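Foxp3 regulatory T cells were described in single-cell RNA libraries from mouse pancreatic ductal adenocarcinoma (PDAC). A barcode passed the quality limits with 500 or more UMIs (unique molecular identifiers, each standing for 1 captured RNA molecule), 300 or more genes and no more than 20% of UMIs from mitochondrial genes. Members were then chosen by the UMIs of 11 genes. They had at least 2 UMIs of Cd3d, Cd3e and Cd3g together, at least 1 of Foxp3, none of Cd8a or Cd8b1, at most 1 of C1qa, C1qb and C1qc together, and at most 1 of Mki67 and Top2a together. The last 3 conditions kept out CD8 T cells, barcodes with macrophage RNA and cycling cells. Of 45685 cells that passed the 3 quality limits, 210 met the rule: 4 of 11051 in Control, 6 of 16033 in PH, 200 of 14022 in G and 0 of 4579 in GPH. The levels of the genes that chose the cells are given as a description only.

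There was 1 droplet library (10x Genomics) for each of 4 groups, and each library pooled tumour pieces of 3 animals after enzymatic digestion. Control mice received PBS, PH mice paricalcitol and hydroxychloroquine, and G mice gemcitabine. The GPH treatment label gives gemcitabine at 60 mg/kg and is incomplete, so that group was taken from its title. Paricalcitol activates the vitamin D receptor, hydroxychloroquine raises lysosomal pH and blocks late autophagy, and gemcitabine is a nucleoside analogue. Strain, age and the way the tumours were raised are not given in the sources used here. Because each group is 1 library, the spread between animals of a group was not measured, and values of different libraries are set side by side without a test.

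Regulatory T cells are CD4 T cells that restrain other immune cells and keep tolerance to self. Their lineage is set by the transcription factor Foxp3. Surface CD25 (Il2ra), the alpha chain of the high-affinity interleukin 2 receptor, is usually high. They also carry CTLA-4, which takes CD80 and CD86 from antigen-presenting cells. In tumours, including those of the pancreas, activated regulatory T cells with receptors of the TNF receptor family such as OX40 (Tnfrsf4), GITR (Tnfrsf18) and 4-1BB (Tnfrsf9) are well known.

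The depth behind the libraries differed. The members of G had a median of 3756 UMIs (981 to 52788) and summed to 1180132 UMIs. The 4 members of Control summed to 7847 UMIs and the 6 of PH to 29707, with medians of 1930 and 2264 UMIs. In G, 24 of 200 members exceeded 10000 UMIs, and the 10 deepest held 25.0% of the summed UMIs. Between 17 and 79 barcodes were shared by each pair of libraries, and no barcode was a member in both libraries of a pair.

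RNA of tumour cells was present in T cell barcodes. A UMI of Krt19, Krt8, Krt18, Cdkn2a or Col3a1 was found in 57 of 200 members of G (28.5%), 1 of 4 in Control and 1 of 6 in PH. The shares in G were 24.8% of conventional CD4 T cells, 26.7% of CD8 T cells and 36.6% of macrophages. Members of G with such a UMI had a median of 6270 UMIs, against 3408 for those without. In PH, 1 member held 15563 of the 29707 UMIs, among them 25 of Cdkn2a and 7 of Col3a1, and had no UMI of Ctla4, Tnfrsf4, Il2ra or Ikzf2. That barcode goes against the label. The sums of PH below include it unless a sentence says otherwise. Shares, counts of calls and the levels of Ikzf2, Ctla4, Tnfrsf4, Tnfrsf9 and Gzmb are also given without barcodes that hold a tumour UMI.

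The label was checked against 3 markers that the rule did not use: Il2ra, Ctla4 and Tnfrsf4. In G, 74 of 200 members (37.0%) had UMIs of all 3, 99 (49.5%) of exactly 2, 24 of 1 and 3 of none. All 3 were found in 8.80% of the 625 conventional CD4 T cells of G, taken with the same limits but with a Cd4 UMI and no Foxp3 UMI. They were found in 2.16% of the 970 CD8 T cells, and in 0.0887% of 1127 macrophages (at least 5 UMIs of the C1q genes and no Cd3 UMI). Exactly 2 were found in 45.1% of the conventional CD4 T cells, 13.4% of the CD8 T cells and 0.266% of the macrophages. The members of G thus carried all 3 markers more often than the other classes. Their share with exactly 2 was close to that of conventional CD4 T cells. Defining genes of NK cells, B cells, macrophages, neutrophils and dendritic cells were all at 0 in the members of Control and PH. In G these lists summed to 157, 9.32, 35.6, 48.3 and 17.8 CPM (UMIs of the gene per summed UMIs of the class, scaled to 1000000), and 4 keratin-list genes of the tumour summed to 1693, against 739 in conventional CD4 T cells. By a limit of 3 counts, a 0 of a gene or list allows up to 382 CPM in Control and 101 in PH. These limits lie above the G values, except for NK genes in PH, so the 0s show no purity. The macrophage list holds C1qa, C1qb and C1qc, which the rule limited, so its low level was partly set by the rule. Apart from the values given without tumour UMIs, the part of this RNA in the results was not tested.

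Few Foxp3 UMIs marked each cell. Of 454 kept cells of G with a Foxp3 UMI, 19 lacked the Cd3 UMIs, 65 had a Cd8 UMI, 30 had C1q UMIs and 140 were cycling, which left 200. Among those, 145 had 1 Foxp3 UMI, 40 had 2 and 15 had 3 or more, up to 5. A Cd4 UMI was seen in 69 of the 200 (34.5%). In Control 16 kept cells had a Foxp3 UMI, in PH 16 and in GPH 1, which lacked the Cd3 UMIs. Foxp3 (chromosome X, 7573644 to 7595245, mm10) stood at 236 CPM in the members of G, 303 in PH and 510 in Control. No macrophage had a Foxp3 UMI in G (0 of 1127), in PH (0 of 281) or in Control (0 of 144). The 0 of G allows a share of up to 0.266% by the limit of 3 counts, and up to 0.327% by the exact interval. Yet macrophages were deeper than the members, with medians of 6382, 9625 and 13884 UMIs in G, PH and Control. Among non-immune cells of G, 5 of 4412 had one.

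Levels near the limits of the rule were set side by side. The 145 members with 1 Foxp3 UMI had Ctla4 at 649 and Ikzf2 at 840 CPM, and the 55 with 2 or more had 753 and 858. The counting intervals of both genes overlapped. Those of Krt19 (427 against 302 CPM), Lyz2 (253 against 128) and Cd74 (1343 against 1095) did not, each being higher with 1 Foxp3 UMI. The part of RNA from other cells in this was not tested. The 9 members with exactly 2 Cd3 UMIs had Ctla4 at 272 CPM (155 to 441), and 8 cells with 1 Cd3 UMI, just outside, had 55.5 (11.4 to 162). Tnfrsf4 stood at 424 inside and 333 outside, and Ikzf2 at 323 inside and 407 outside. These intervals overlapped for Ctla4, Tnfrsf4 and Ikzf2, which is not a test of a difference. Krt19 stood at 985 inside (748 to 1273) and 2757 outside (2332 to 3237), and these intervals did not overlap. It was seen in 33.3% of the cells inside and 25% of those outside. The 191 members with more than 2 Cd3 UMIs had Ctla4 at 701 (653 to 752), above those with exactly 2.

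Foxp3 cells made up a larger share of T cells in G than in Control or PH by their counting intervals, and none was seen in GPH. Of CD8-negative, non-cycling T cells they were 1.17% in Control (4 of 341, 95% exact interval 0.321 to 2.98), 1.08% in PH (6 of 553, 0.399 to 2.35) and 7.37% in G (200 of 2715, 6.41 to 8.41). In GPH they were 0 of 308, which allows a share of up to 0.974% by 3 counts and 1.19% by the exact interval. Of all T cells they were 0.513%, 0.517% and 4.28% in Control, PH and G, and 0 of 429 in GPH, which allows up to 0.699%. The limits for GPH hold for barcodes rather than for clean T cells, since only 10 of the 308 and 19 of the 429 had no tumour UMI, and 0 of 10 allows up to 30%. These intervals cover counting error only, and these CD8-negative T cells differed in depth, with medians of 3553 UMIs for Control, 7696 for PH, 3383 for G and 31601 for GPH. A difference between treatments and a difference between the animals or preparations of 1 library cannot be told apart.

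A common depth was set in 2 ways, which differ on whether the intervals overlap. With the T cells taken from all UMIs and each then thinned to 1000 UMIs, a Foxp3 UMI was seen in 1 of 320 in Control (0.313%, 0.00791 to 1.73), 3 of 541 in PH (0.555%, 0.115 to 1.61) and 67 of 2683 in G (2.5%, 1.94 to 3.16), so the intervals of Control and PH lay under that of G. When the whole rule was applied again to the thinned UMIs, fewer cells counted as T cells, and Foxp3 cells were 2 of 212 CD8-negative T cells in Control (0.943%, 0.114 to 3.37), 3 of 218 in PH (1.38%, 0.285 to 3.97), 67 of 2226 in G (3.01%, 2.34 to 3.81) and 0 of 60 in GPH, which allows up to 5%. There the intervals of Control and PH overlapped that of G. Among cells with no tumour UMI, a setting added after the data were seen, the shares were 3 of 171 in Control (1.75%), 5 of 162 in PH (3.09%, 1.01 to 7.06) and 143 of 1958 in G (7.30%, 6.19 to 8.55). There the interval of PH overlapped that of G, and only 10 such T cells remained in GPH.

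Against conventional CD4 T cells alone, Foxp3 cells were 4 of 59 in Control (6.78%, 1.88 to 16.5), 6 of 54 in PH (11.1%, 4.19 to 22.6) and 200 of 825 in G (24.2%, 21.4 to 27.3). In GPH 15 conventional CD4 T cells stood beside no Foxp3 cell, which allows a share of up to 20%. After thinning these shares were 6.25%, 15.0% and 23.5%, and the intervals of all 3 libraries overlapped. Against CD8 T cells, Foxp3 cells were 1.63% in Control, 1.92% in PH and 17.1% in G.

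**Figure D1:**
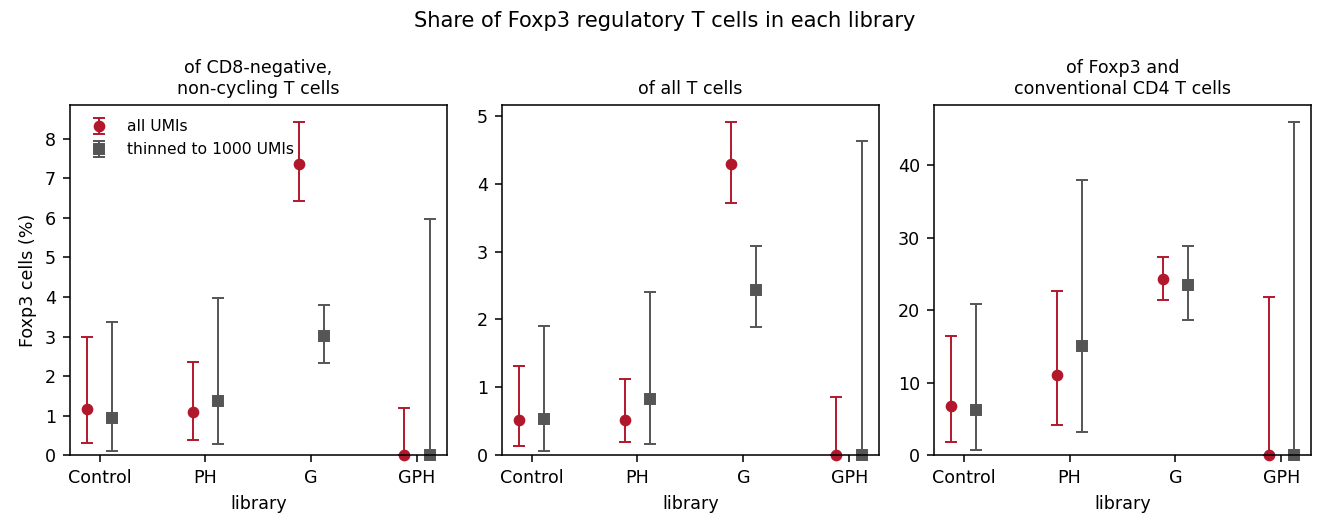
Foxp3 cells as a percentage of CD8-negative non-cycling T cells, of all T cells, and of Foxp3 plus conventional CD4 T cells, in each library. Red circles use all UMIs and grey squares cells thinned to 1000 UMIs with the rule applied again, which also changes the denominators; bars are 95% exact intervals for counting error. G is highest in each panel, and the grey intervals of Control and PH overlap those of G.

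Conventional CD4 T cells are the closest comparison. A Foxp3 cell whose Foxp3 RNA was not captured counts among them if it held a Cd4 UMI. Within G the summed UMIs of 200 Foxp3 cells were set against those of 625 conventional CD4 T cells. Of 1323 genes with at least 100 CPM in 1 of the classes and at least 30 UMIs in all, 47 (3.55%) were over 2-fold higher in Foxp3 cells and 69 (5.22%) over 2-fold lower. This is a description by size within 1 library. A test needs several libraries, so edgeR's quasi-likelihood test was run on the sums of Control, PH and G with the library as a block, on genes with at least 300 UMIs. Of 1848 genes tested, 15 (0.812%) were higher and 22 (1.19%) lower in Foxp3 cells at a Benjamini-Hochberg adjusted p under 0.05. That fit has 2 residual degrees of freedom, takes 4, 6 and 200 Foxp3 cells, and uses libraries of different treatments as its replicates. All adjusted p-values below are edgeR's, and they rest on thin sums in Control and PH. Without Control the calls were 4 higher and 18 lower, without PH 9 and 28, without G 12 and 9, and among cells with no tumour UMI 12 and 21. Without the Cd4 condition on the comparison cells they were 10 and 4.

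Ikzf2, which encodes Helios, a transcription factor of regulatory T cells, had the largest positive difference in the fit. It stood at 2294, 707 and 846 CPM in the Foxp3 cells of Control, PH and G, and at 72.2, 58.0 and 226 in the conventional CD4 T cells. The summed level was thus higher in the Foxp3 cells of each library. Without barcodes that hold a tumour UMI the Foxp3 levels were 2356, 1485 and 1165 CPM. The fitted difference was 2.98 on the log2 scale (adjusted p = 1.53e-11), and Ikzf2 kept its call in 13 of 13 other settings. In G, 188 of 200 members had an Ikzf2 UMI (94.0%), against 40.5% of conventional CD4 T cells and 48.6% of CD8 T cells. With each cell thinned to 1000 UMIs these shares were 60.3%, 19.4% and 21.1%, and 0.642% in macrophages. The gene lies on chromosome 1, 69531214 to 69687245 (mm10, minus strand).

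Ctla4 (chromosome 1, 60887000 to 60915832) stood at 1274, 707 and 680 CPM in the Foxp3 cells of Control, PH and G, against 393, 149 and 289 in conventional CD4 T cells. It was higher in all 3 libraries, by 1.49 on the log2 scale (adjusted p = 0.00171), but the call held in 8 of 13 other settings and was lost without PH (adjusted p = 0.353). Without barcodes that hold a tumour UMI its Foxp3 levels were 1414, 1485 and 927 CPM. Tnfrsf4 (chromosome 4, 156013843 to 156016612) stood at 4333, 707 and 990 CPM against 637, 190 and 659. Its difference was 1.45 (adjusted p = 0.00185), called in 7 of 13 other settings and lost without Control (adjusted p = 0.237) and without PH (adjusted p = 0.410). Its Foxp3 levels without such barcodes were 3613, 1485 and 1334 CPM. In G alone the ratio was 1.50, and after thinning a Tnfrsf4 UMI was seen in 61.8% of Foxp3 cells, 45.8% of conventional CD4 T cells and 9.43% of CD8 T cells.

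Il2ra (chromosome 2, 11642807 to 11693193) was low in UMIs. It stood at 0, 135 and 183 CPM in Foxp3 cells of Control, PH and G, against 27.1, 30.4 and 59.5. Its call was marginal (log2 difference 1.62, adjusted p = 0.0465) and held in 1 of 9 other settings, with an adjusted p of 0.0795 without Control and 0.221 without PH. In the 7847 UMIs of the Control members, a count of 0 allows up to 382 CPM. Within G the ratio was 3.08 (95% counting interval 2.51 to 3.77), with an Il2ra UMI in 89 of 200 members.

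No other gene of the regulatory T cell identity list passed the fit. Of the 18 on the list, 10 were tested over libraries: Ikzf2, Ctla4, Tnfrsf4 and Il2ra were higher, none was lower, and the list's median was 1.28 against -0.06 over all genes tested. Over all 1848 genes 0.812% were higher. Tnfrsf18 had a difference of 1.00 (adjusted p = 0.160) and Izumo1r, folate receptor 4, of 1.49 (adjusted p = 0.0716). Without the Cd4 condition on the comparison cells Tnfrsf18 was called higher and Izumo1r was not. By size within G, 9 list genes were measured and 4 were past 2-fold, with Izumo1r at 147 against 53.8 CPM. Lrrc32, which encodes GARP, the surface anchor of latent TGF-beta, was under the measured level at 89.8 CPM against 11.8, a ratio of 7.63 (5.17 to 11.5), and was seen in 36.5% of members and 4.16% of conventional CD4 T cells.

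**Figure D2:**
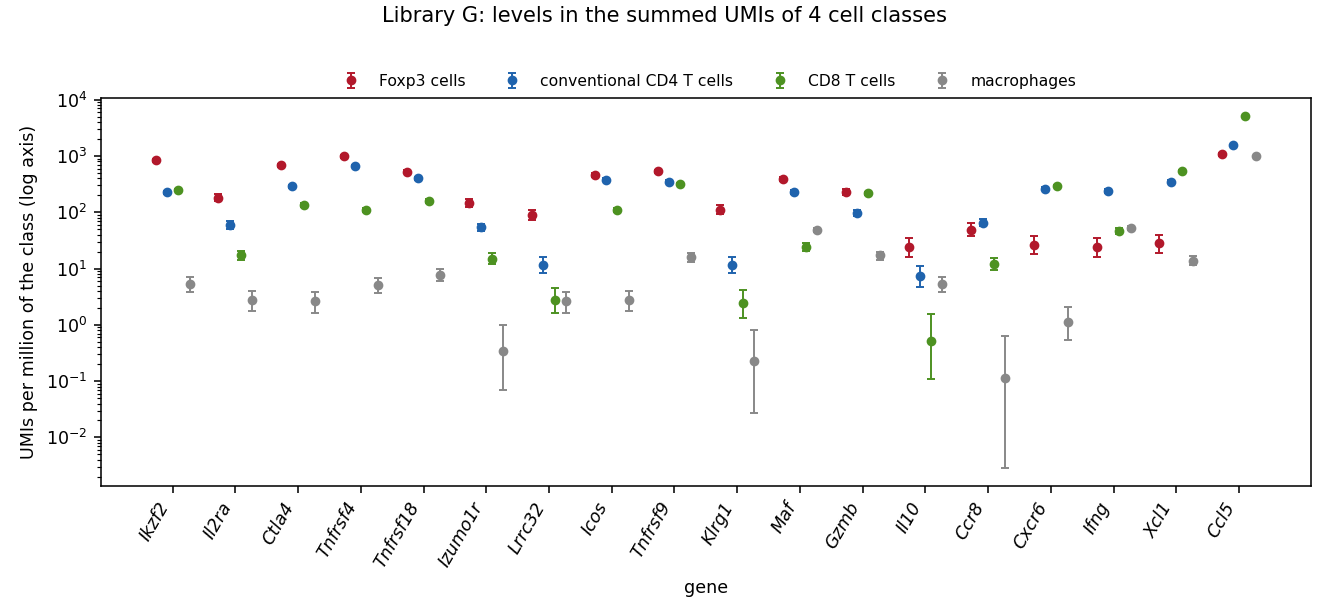
Levels of regulatory T cell, effector and cytotoxic genes in library G, as CPM of the summed UMIs of each class on a log axis, with 95% counting intervals; a class at 0 has no point. Ikzf2 was at 846 in Foxp3 cells and 226 in conventional CD4 T cells, while Cxcr6 was at 26.3 and 264.

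A second list held genes linked to activated regulatory T cells of tissues and tumours. Of 20 on that list, 10 were tested over libraries. Tnfrsf9 was higher, Cxcr6 was lower, and the median was 0.42. Over all 1848 genes 0.812% were higher and 1.19% lower, with a median of -0.06. Tnfrsf9, the receptor 4-1BB, stood at 1912, 337 and 531 CPM in Foxp3 cells of Control, PH and G against 99.3, 85.6 and 348 (log2 difference 1.73, adjusted p = 0.00138). Its adjusted p was 0.466 without Control and 0.0666 among cells with no tumour UMI, whose Foxp3 levels were 1885, 707 and 728 CPM. Icos, a costimulatory receptor, had a difference of 0.86 (adjusted p = 0.233), Maf of 0.79 (adjusted p = 0.474) and Areg, a growth factor of the EGF family, of 0.61. Icos and Maf were called higher only when the Cd4 condition on the comparison cells was dropped, among the settings against conventional CD4 T cells.

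Klrg1, a receptor of terminally differentiated effector T cells, had the largest ratio to conventional CD4 T cells among the named genes of G. It stood at 112 CPM in Foxp3 cells, 11.8 in conventional CD4 T cells and 2.45 in CD8 T cells, which gave a ratio of 9.51 to CD4 (6.51 to 14.2) and 45.6 to CD8. Its UMIs were in 60 of 200 members, 3.04% of conventional CD4 T cells and 1.13% of CD8 T cells. Thinned to 1000 UMIs the shares were 14.6%, 1.12% and 0.311%, with no macrophage among them. Klrg1 had too few UMIs for the fit over libraries, and 1 member of Control and 1 of PH had a UMI of it. Ccr8, a chemokine receptor often used to mark tumour regulatory T cells, stood at 49.2 CPM against 65.6 in conventional CD4 T cells of G, and in 38 of 200 members.

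Among 13 suppressive mediators 8 were tested, of which Ctla4 and Gzmb were higher and Penk was lower. Over all 1848 genes 0.812% were higher and 1.19% lower. Gzmb, the cytotoxic protease granzyme B, stood at 1529, 438 and 229 CPM in Foxp3 cells of Control, PH and G against 221, 55.2 and 96.8 (log2 difference 1.94, adjusted p = 0.00031). Its adjusted p was 0.0798 without Control and 0.0746 without PH. Gzmb was not among the 10 genes called higher without the Cd4 condition on the comparison cells. Without barcodes that hold a tumour UMI the Foxp3 levels were 1571, 919 and 345 CPM. Tgfb1 did not pass the test (difference -0.18, 174 against 182 CPM in G). Il10 was scarce in G, at 23.7 against 7.40 CPM, and Ebi3 stood at 11.9 against 15.1. Penk, the enkephalin precursor, was at 0 in the Foxp3 cells of Control and PH and at 20.3 CPM in G, against 113, 74.5 and 197 (log2 difference -3.33). Those 0s allow up to 382 CPM in Control and 101 in PH, above the conventional CD4 levels, so only G shows Penk to be lower.

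Effector genes of conventional T cells were among the lower genes. Cxcr6, a chemokine receptor of tissue T cells, was at 0, 0 and 26.3 CPM in the Foxp3 cells of Control, PH and G, against 528, 113 and 264 (log2 difference -3.50, adjusted p = 8.5e-07). Without the Cd4 condition on the comparison cells only 4 genes were called lower, Ccl4, Klrd1, Dcn and Xcl1. Cxcr6 lost its call there (adjusted p = 0.137). Ifng, interferon gamma, was at 0, 33.7 and 23.7 against 456, 130 and 240 (log2 difference -3.30, adjusted p = 4.39e-06, with 0.224 without G and 0.358 without the Cd4 condition). Both genes had a lower summed level in all 3 libraries. Ifng in PH rested on 1 UMI, with a counting interval up to 188 CPM, so it is not shown to be lower there. A fitted fold of a gene at 0 in Control or PH depends on the prior count and is no bound.

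Of 12 cytotoxic effectors 7 were tested. The chemokines Ccl3, Ccl4 and Ccl5 and the NK receptor Klrd1 were lower, Gzmb was higher, and the median was -1.61. Over all 1848 genes 1.19% were lower and 0.812% higher, with a median of -0.06. Ccl4, a chemokine of activated T cells, was at 0, 0 and 8.47 CPM against 94.8, 270 and 210 (log2 difference -4.71, adjusted p = 5.29e-09, and 0.0686 without G). The 0 in Control allows up to 382 CPM, above the 94.8 of conventional CD4 T cells, so Ccl4 is not shown to be lower there. Klrd1 lost its call without G too (adjusted p = 0.0953). Ccl5 stood at 1912, 168 and 1071 against 3232, 2718 and 1538, and its call was lost without Control (adjusted p = 0.184) and without PH (0.999), as well as without the Cd4 condition (0.245). Ccl3 was lower in G, at 1.69 against 193, but higher in Control and PH, where it rested on 1 and 6 UMIs, and its adjusted p was 0.199 without Control. Nkg7, a granule protein, had a difference of -1.16 (adjusted p = 0.0749).

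**Figure D3:**
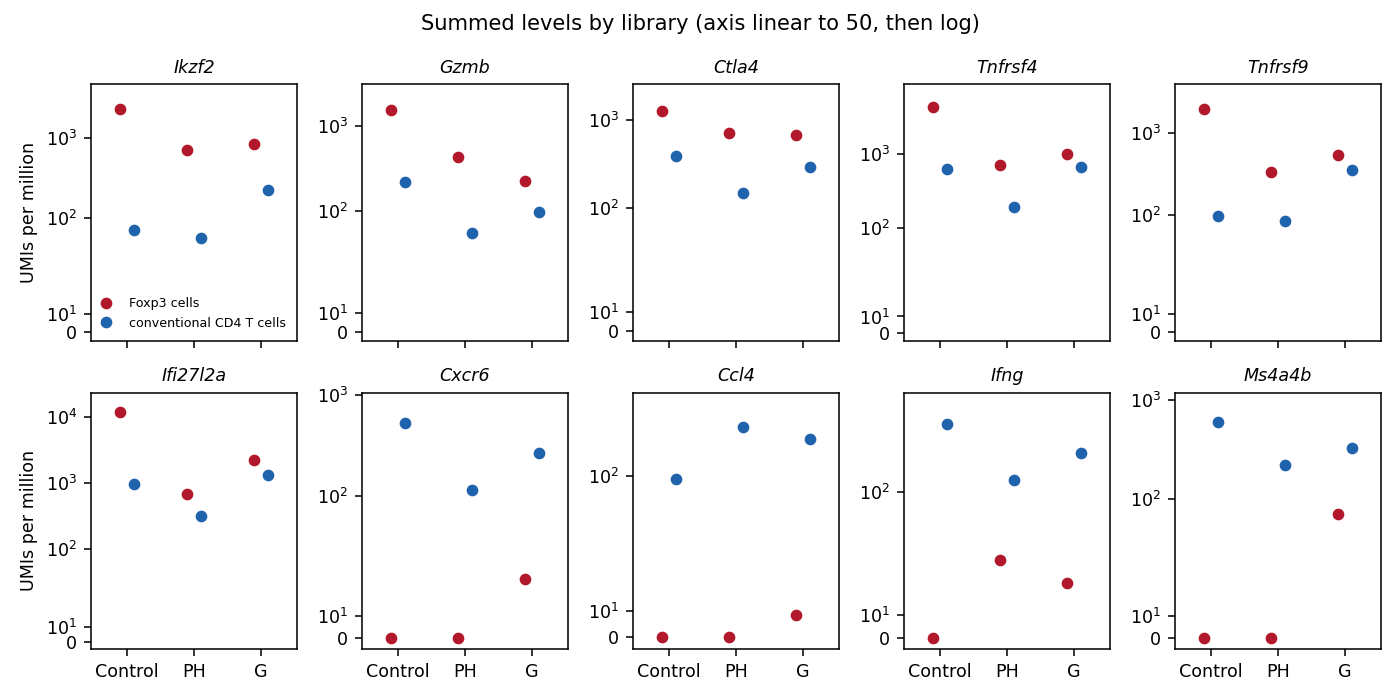
Summed levels (CPM) of 10 genes in Foxp3 cells (red) and conventional CD4 T cells (blue) of Control, PH and G, on an axis that is linear to 50 and logarithmic above. Ikzf2 was higher in the Foxp3 cells of each library (2294, 707 and 846 against 72.2, 58.0 and 226), and Cxcr6, Ccl4 and Ms4a4b were at 0 in those of Control and PH. By 3 counts a 0 allows up to 382 CPM in Control and 101 in PH.

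Further genes were named by their rank in the fit. The higher ones were Pglyrp1, a peptidoglycan recognition protein (log2 difference 1.86, adjusted p = 0.00696), Cmtm7 (1.66), Itgb7, the integrin beta 7 chain of gut-homing T cells (1.65), Glrx, glutaredoxin (1.63), Ifi27l2a, an interferon-induced gene (1.61), Il7r, the interleukin 7 receptor chain (1.60), and Ptprcap, a CD45-associated protein (1.21). Itgb7 stood at 255, 67.3 and 158 CPM in Foxp3 cells of Control, PH and G, against 45.1, 19.3 and 52.4. Il7r, usually described as low on regulatory T cells, stood at 510, 236 and 157 against 31.6, 46.9 and 78.3, higher in each library. Each of these 7 lost its call without Control and without PH. Without the Cd4 condition on the comparison cells Glrx, Ifi27l2a and Ptprcap were still called, and Pglyrp1, Cmtm7, Itgb7 and Il7r were not. Of all 14 higher genes named here, 8 of the 9 that could be tested without G were still called, all but Glrx.

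The lower ones, beside those above, were Nrgn, neurogranin (-3.46), Tbc1d4 (-3.35), Klrd1 (-3.16), Ms4a4b (-2.59), Sytl3 (-2.05) and Serpinb9, a granzyme B inhibitor (-1.88). Nrgn and Tbc1d4 were at 0 in the Foxp3 cells of Control, against 113 and 122 CPM in conventional CD4 T cells. A 0 there allows up to 382 CPM, so neither gene is shown to be lower in Control. Nrgn was also at 0 in the Foxp3 cells of PH, against 63.5 in conventional CD4 T cells. A 0 in PH allows up to 101 CPM, so only G shows Nrgn to be lower. Ms4a4b, Sytl3 and Serpinb9 lost their calls without the Cd4 condition (adjusted p = 0.114, 0.728 and 0.906), and Nrgn, Tbc1d4 and Penk were not tested there. Sytl3 and Serpinb9 also lost theirs without each of the 3 libraries, and Tbc1d4 without G (adjusted p = 0.398). Ms4a4b, a membrane protein of T cells, was at 0, 0 and 70.3 CPM in Foxp3 cells against 591, 221 and 325. By size within G, Hopx, a homeodomain-only protein, stood at 340 against 96.8 (ratio 3.51) and Gimap7 at 186 against 58.8 (ratio 3.15). Ccr2, a chemokine receptor, stood at 111 against 39.3 in G (ratio 2.82) and at 2166 against 99.3 in Control, but at 33.7 against 49.7 in PH. It was called higher in the fit (log2 difference 2.03, adjusted p = 0.000847), was still called without PH and without G, and was not among the genes tested without Control. Without the Cd4 condition on the comparison cells Ccr2 was not among the genes called. Tnfsf11, the cytokine RANKL, stood at 3.39 against 110.

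**Figure D4:**
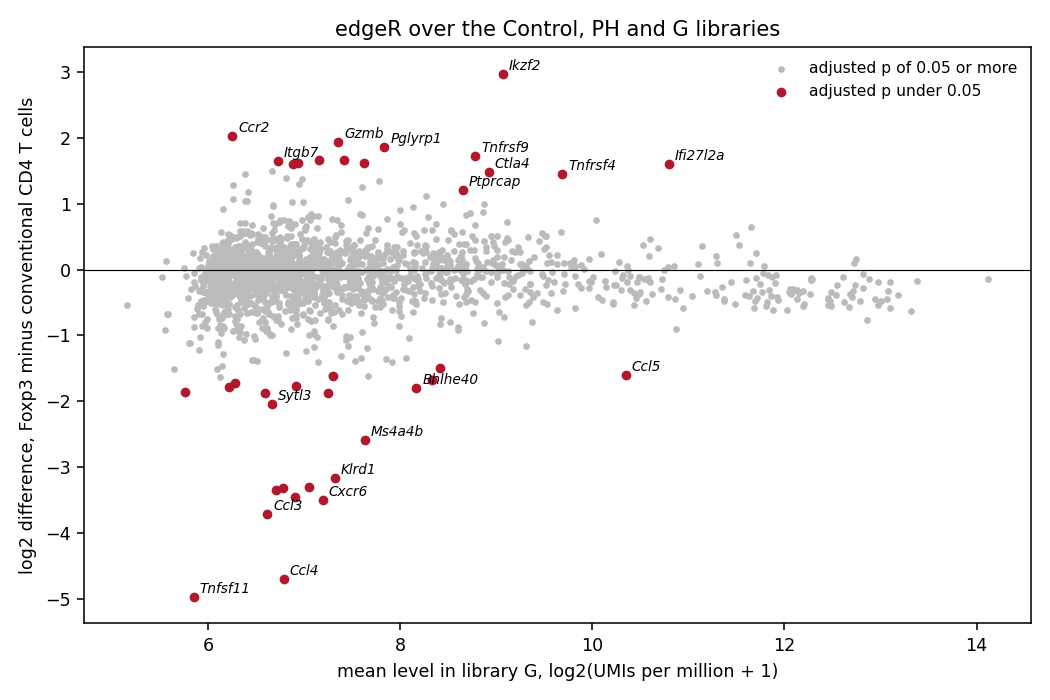
The edgeR fit of Foxp3 against conventional CD4 T cells over Control, PH and G, with the mean level in G (log2 of CPM plus 1) against the log2 difference; each point is 1 of 1848 genes and red marks an adjusted p under 0.05. Ikzf2 lies highest at 2.98, and the 22 lower genes include Ccl4 at -4.71 and Cxcr6 at -3.50.

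Some ratios within G moved with single barcodes or with tumour RNA. Gzma, granzyme A, had a ratio of 4.62, but 96.1% of its UMIs in Foxp3 cells came from 3 cells, and without the highest Scrublet doublet scores the ratio was 0.22. Clu, Tff1 and Lcn2, genes of ductal tumour cells, had ratios of 6.61, 5.91 and 6.23, which were 0.21, 0.53 and 0 among cells with no tumour UMI. There the ratios of Ikzf2, Klrg1, Il2ra and Ctla4 were 4.27, 8.31, 3.81 and 2.62.

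Of 6 measured activation genes downstream of the T cell receptor, 3 were over 2-fold lower in Foxp3 cells of G, against 5.22% of all 1323 genes measured. Nr4a2 stood at 91.5 against 311 CPM, Nr4a3 at 99.1 against 234, and Nfatc1 at 34.7 against 118. The NF-kappaB feedback genes Tnfaip3 (147 against 358) and Nfkbia (180 against 364) were past 2-fold too, of 5 measured. Over the 3 libraries 7 receptor activation genes were tested, of which Nfatc1 was lower (-1.73, adjusted p = 0.0415, and 0.0962 without Control) and Tnfrsf9 higher. None of 6 NF-kappaB genes passed. Over all 1848 genes 0.812% were higher and 1.19% lower.

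Lists tied to the drugs gave no call between the classes in the fit: 0 of 10 autophagy and lysosome genes tested (19 on the list) and 0 of 3 gemcitabine uptake, activation and target genes (11 on the list). Over all 1848 genes 0.812% were higher and 1.19% lower, so lists this short would mostly hold no call at those shares. None of the 7 vitamin D receptor genes was tested, because their UMIs were too few. Of 5 type I interferon genes tested, Ifi27l2a was higher, at 11597, 673 and 2240 CPM in Foxp3 cells of Control, PH and G against 971, 315 and 1311. None of 10 glycolysis and hypoxia genes, 12 immediate early genes and 3 p53 targets passed, and the same shares over all genes apply to them. At an unadjusted p under 0.05 the fit held 46 higher and 76 lower genes over all 1848.

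CD8 T cells were the second comparison. Within G, 68 of 1257 measured genes (5.41%) were over 2-fold higher and 34 (2.70%) lower. In the edgeR fit over Control, PH and G, 42 of 3287 genes (1.28%) were higher and 66 (2.01%) lower at an adjusted p under 0.05. The calls were 38 and 54 without Control, 52 and 51 without PH, 9 and 13 without G, and 55 and 82 among cells with no tumour UMI. Both comparisons use the same Foxp3 sums.

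Tnfrsf4 was higher in Foxp3 cells than in CD8 T cells in each library. It stood at 4333, 707 and 990 CPM in Foxp3 cells of Control, PH and G, against 19.0, 36.0 and 111 in CD8 T cells (log2 difference 4.41, adjusted p = 5.06e-19). Of the 9 identity genes tested, 7 were higher and none lower, with a median of 2.12 against -0.14 over all genes: Tnfrsf4, Il2ra (3.33), Ikzf2 (2.79), Tnfrsf18 (2.12), Ctla4 (2.12), Dusp4 (1.61) and Capg (1.53). Over all 3287 genes 1.28% were higher. The call of Capg was lost without PH and without G. Il2rb, the interleukin 2 receptor beta chain, had a difference of -0.66 (adjusted p = 0.846).

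Of the list of activated regulatory T cells 10 genes were tested against CD8, and 4 were higher, against 1.28% of all genes tested. Maf, a transcription factor, stood at 1402, 370 and 395 CPM against 53.4, 45.1 and 24.5 (log2 difference 3.52, adjusted p = 3.7e-13). Icos stood at 2421, 673 and 463 against 177, 167 and 110 (2.12), Areg differed by 2.36 and Tnfrsf9 by 1.63. The call of Tnfrsf9 was lost without Control and without PH, and that of Areg without G. Cxcr6 was lower (-3.77), with an adjusted p of 0.0931 without G. Other named genes that were higher were Ass1, argininosuccinate synthase (2.53), Ccr2 (2.43), Tent5a (2.15), Ifi27l2a (2.01), Sdf4 (2.01), Got1, the cytosolic aspartate aminotransferase (1.99), and Il7r (1.93). Of these, Ccr2 kept its call without each library, Ass1 without Control and without PH, and the other 5 lost it without G, Ifi27l2a and Tent5a also without PH.

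Cytotoxic effector genes were lower in Foxp3 cells. Of 10 cytotoxic effectors tested 8 were lower and none higher, with a median of -2.80: Ccl4 (-4.14), Ccl5 (-4.10), Klrd1 (-3.94), Gzmk (-3.51), Klrk1 (-3.15), Fasl (-2.45), Nkg7 (-2.09) and the pore-forming Prf1 (-1.70). Over all 3287 genes 2.01% were lower. Ccl5 stood at 1912, 168 and 1071 CPM against 17084, 12623 and 5073, and lost its call without PH (adjusted p = 0.278) and without G (0.0931). Without G, 2 of the 8 were still called, Ccl4 and Klrd1. Gzmb did not pass the test (-0.02), with 1529, 438 and 229 CPM in Foxp3 cells against 738, 369 and 216. Xcl1, a chemokine of cytotoxic cells (-4.45), the NK receptor Klrc1 (-4.43) and Ms4a4b (-3.43) were lower too. Xcl1 and Klrc1 lost their calls without G. Each was at 0 in the Foxp3 cells of Control and PH, where a 0 allows up to 382 and 101 CPM. CD8 T cells there had Xcl1 at 112 and 27.4, so only G shows it to be lower. In Control they had Klrc1 at 119, Ccl4 at 322, Klrd1 at 265 and Cxcr6 at 215. These genes, at 0 in its Foxp3 cells, are not shown to be lower in Control. Dcn (-5.68), Mgp (-4.57) and Col1a2 (-4.43), genes of stromal cells, were also called lower. They were at 0 in the Foxp3 cells of Control and PH, and the part of free stromal RNA in the CD8 sums was not tested.

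The members of G were not uniform. A UMI was seen of Tnfrsf9 in 166 of 200, Il2ra in 89, Gzmb in 77, Klrg1 in 60, Ccr7 in 41 and Ccr8 in 38. Cells with a Ccr8 UMI were deeper than those without (median 5095 against 3513 UMIs). Ctla4 and Tnfrsf4 were seen together in 159 of 200 cells, and Il2ra and Ctla4 in 77.

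In the split by Klrg1 the median depth was 3759 UMIs in the 60 cells with a Klrg1 UMI and 3756 in the 140 without, but 38 of the 60 and 105 of the 140 had no tumour UMI. Ikzf2 was seen in 95% and 93.6% of them, Ctla4 in 88.3% and 85.7%, and Itgb7 in 55.0% of both. Fgl2, a secreted fibrinogen-like suppressive mediator, was seen in 61.7% of Klrg1 cells (95% exact interval 48.2 to 73.9) and 29.3% of the others (21.9 to 37.6). Among cells with no tumour UMI these shares were 71.1% and 30.5%. The intervals of Gzmb (48.3% and 34.3%), Ccr2 (45.0% and 29.3%), Il2ra (53.3% and 40.7%) and Areg (40% and 33.6%) overlapped. Fgl2 was singled out after its values were seen, from 1 library, and the cells are not replicates.

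**Figure D5:**
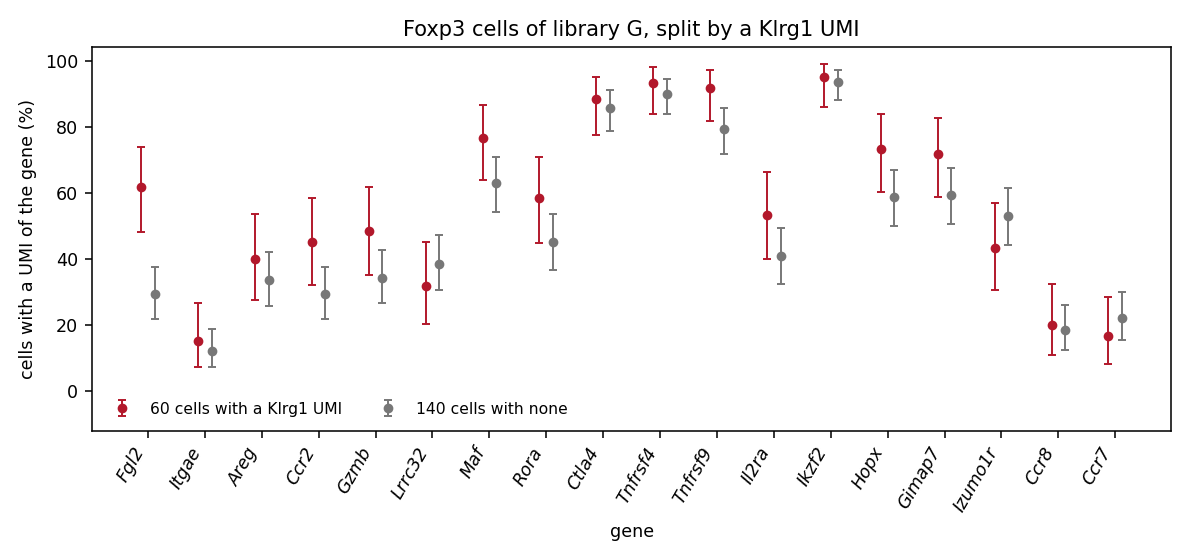
Percentage of the Foxp3 cells of G with a UMI of each of 18 genes, in the 60 cells with a Klrg1 UMI (red) and the 140 without (grey), with 95% exact intervals for counting error. Fgl2 shows 61.7% against 29.3%, and Ikzf2 95% against 93.6%.

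The split by Ccr8 was read in the same way. Ccr7, a receptor that guides cells to lymph nodes, was seen in 44.7% of cells with a Ccr8 UMI (28.6 to 61.7) and 14.8% of those without (9.73 to 21.2), and these intervals do not overlap. Gata3 was seen in 47.4% (31.0 to 64.2) and 28.4% (21.6 to 36.0), which overlap. Among cells with no tumour UMI the Ccr7 shares were 44.8% and 16.7%. The Ccr8 cells were deeper, and the part of depth in the Ccr7 shares was not tested.

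The 4 members of Control and 6 of PH are few enough to give cell by cell. In Control, Tnfrsf4 had 9, 6, 11 and 8 UMIs, Ikzf2 0, 6, 3 and 9, Ctla4 5, 0, 1 and 4, Icos 4, 2, 2 and 11, and Gzmb 0, 6, 2 and 4. All 4 cells had Tnfrsf4 and Icos, and none had Il2ra. In PH, Tnfrsf4 had 0, 5, 1, 9, 4 and 2 UMIs, Ctla4 0, 3, 3, 6, 9 and 0, Ikzf2 0, 3, 5, 6, 7 and 0, and Il2ra 0, 1, 1, 1, 0 and 1. The first PH cell is the barcode with tumour RNA described above, and each of the other 5 had UMIs of Tnfrsf4.

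Treatment effects within Foxp3 cells could not be compared. Fewer than 20 Foxp3 cells were found in Control and in PH and none in GPH, so G against Control, PH against Control and G against PH were left as values side by side. Ctla4 stood at 1274 CPM in Control (95% counting interval 611 to 2344), 707 in PH (438 to 1081) and 680 in G (633 to 728), and these intervals overlap. Without barcodes that hold a tumour UMI it stood at 1414 (646 to 2684), 1485 (919 to 2270) and 927 (853 to 1006), which overlap too. Tnfrsf4 was at 4333 in Control (3001 to 6055), above 990 in G (934 to 1048), and Ikzf2 at 2294 (1359 to 3625) above 846 (794 to 900), each from 4 cells of 1 library. Without such barcodes Tnfrsf4 was at 3613 in Control (2290 to 5421) and 1334 in G (1244 to 1428), and Ikzf2 at 2356 (1319 to 3886) and 1165 (1082 to 1254), from 3 cells of Control.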

How the data were processed

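The authors deposited, per library, raw UMI counts per gene and barcode; per the labels' protocols, tumour tissue was digested with enzymes. Per the submitters' processing notes, Cell Ranger 6.1 and mm10 were used, but version 7.0.1 stands in the headers of the deposited matrices. Whether intronic reads were counted, and how barcodes were called, is not given in the sources used here. Gene positions are from GENCODE vM21 (mm10).

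The members and gene lists were chosen with earlier results of these data known. UMIs were summed per library and class and scaled to 1000000 (CPM). Shares have exact Clopper-Pearson intervals and ratios exact conditional binomial intervals, which cover counting error only. The planned fit needed 10 cells per class and library and left G alone, so levels are compared by size within G, and edgeR 4.0.16 (R 4.3.3, TMM, two-sided, Benjamini-Hochberg) was run with a minimum of 1 cell. Its limits are filterByExpr and at least 300 UMIs over the sums; the second was chosen on simulated counts, where genes with fewer UMIs gave false calls, after the data were seen. Named genes are list members plus the 15 highest and 10 lowest log2 differences at an adjusted p under 0.05 with 1 direction in every library and a mean of at least 100 CPM. Within G, rank was set by whichever bound of a ratio's interval lay nearest to 1. DESeq2 1.42.0, RLE factors, thinning, Scrublet scores, other limits and leaving out a library were alternatives. Scrublet's automatic threshold called 0, 1, 0 and 7 barcodes and did not work, so doublets were removed only as an alternative, by the highest scores at 0.8% per 1000 barcodes. The list symbols Mx1, Trgc1 and Trgc2 were not matched. Scrublet ran in scanpy 1.11.5, tables and intervals were made with pandas 2.3.3, numpy 2.4.6 and scipy 1.17.1, and plots with matplotlib 3.10.9, all under Python 3.11.15.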

Additional observations from a re-analysis of the deposited data

Results flagged for a closer look

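Some Foxp3 T cells were left out by the rule. In G, 140 of 340 cells that met every other condition held at least 2 UMIs of Mki67 and Top2a. These were 3 of 7 in Control and 4 of 10 in PH. The 140 cells of G had a median of 10021 UMIs, with Ctla4 at 589 and Ikzf2 at 738 CPM. Among cells with the Cd3 UMIs and a Foxp3 UMI, 65 of 435 in G held a UMI of Cd8a or Cd8b1. These were 2 of 9 in Control and 1 of 13 in PH. The cells of Control and PH are too few to set either share of G apart. Of these 65 cells, 34 had a single Cd8 UMI, 31 were cycling and 23 had a Cd4 UMI, and their median depth was 11065 UMIs. The highest Scrublet scores covered 26 of the 65, 23 of the 140 and 27 of the 200 members.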

How the results depend on the processing

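Of 120 alternative values of 20 shares, 101 moved by less than the counting interval and 19 by more. Of 784 alternative values of 68 fitted gene differences, 554 kept their call, 230 lost it and 0 changed sign. Of 440 alternative values of 80 ratios within G, 251 stayed within the counting interval, 178 moved past it and 11 changed side. With at least 2 Foxp3 UMIs, G held 0.392% of kept cells, 2.03% of CD8-negative T cells, 1.18% of all T cells, 8.09% of Foxp3 and conventional CD4 T cells and 5.37% of Foxp3 and CD8 T cells, and Control held 0. With thinning, these were 0.509%, 3.01%, 2.43%, and 12.8% of Foxp3 and CD8 T cells. Without tumour UMIs, kept cells gave 0.261% in Control, 0.448% in PH and 1.95% in G, and PH gave 3.09% of CD8-negative and 1.26% of all T cells.

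Within G, thinning gave 72 higher genes against CD4 (20 shared) and 145 against CD8; no Cd4 condition gave 31 lower genes, and leaving out tumour UMIs gave 108 higher against CD8. Ratios that changed side were Gzma (0.22 without high Scrublet scores, 0.90 with no Cd4 condition), Clu without tumour UMIs (0.21 against CD4, 0.40 against CD8), Tff1 (0.36 and, against CD8, 0.13 with 2 Foxp3 UMIs; 0.58 with no Cd4 condition; 0.53 without tumour UMIs), Lcn2 (0 in both without tumour UMIs) and Fxyd3 (0.94 with no Cd4 condition).

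In the fit against CD4, higher genes numbered 9 with RLE, 52 with no filter, 2 with DESeq2, 2 with 2 Foxp3 UMIs, 24 without high Scrublet scores, and 4 (without Control) to 12 (without G) leaving out each library; lower genes numbered 83 with no filter, 9 with DESeq2, 12 with 2 Foxp3 UMIs, 44 without high Scrublet scores, 4 with no Cd4 condition and 9 (without G) to 28 (without PH) leaving out each library. Against CD8, higher genes numbered 138 with no filter, 14 with DESeq2, 18 with 2 Foxp3 UMIs and 9 (without G) to 52 (without PH) leaving out each library; lower genes numbered 117, 17, 21 and 13 (without G) to 54 (without Control), and 27 with thinning. The causes were not tested. Contrasts between Control, PH and G within Foxp3 cells were not run, nor the fit with at least 10 or 20 cells per class, since only G had the cells. No paired analysis was possible because the labels give 1 library per group and so no replicates to pair; the library block in the fit pairs only the cell classes of 1 library.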

Other observations

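Cycling Foxp3 T cells, which the rule leaves out, were counted as cells with at least 2 UMIs of Mki67 and Top2a, genes of dividing cells. In G they were 140 of 340 Foxp3 T cells (41.2%, 95% exact interval 35.9 to 46.6), against 18.0% of conventional CD4 T cells and 25.2% of CD8 T cells. The shares were 3 of 7 in Control and 4 of 10 in PH. Cycling cells were deeper, with a median of 10021 UMIs in the Foxp3 T cells of G against 3756 in the others. With each cell thinned to 1000 UMIs the cycling cells of G were 2 of 63 Foxp3 T cells (3.17%, 0.387 to 11), 2 of 202 conventional CD4 T cells and 8 of 441 CD8 T cells, and these intervals overlapped.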
